A study of Homo sapiens and Mus musculus with 66 samples.

Results

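Olfactory receptor genes that lie outside chromosome 11 were followed through lists of chromatin called at or near the nuclear lamina (NL), the protein meshwork under the inner nuclear membrane. The genes were taken by name and place alone, as protein-coding genes on autosomes other than chromosome 11 whose symbol reads OR, digits, letters, digits. This gave 227 genes out of 17912 protein-coding genes on the same autosomes and 19229 on all autosomes. They lie on 16 chromosomes, chromosome 1 having the most, 63, before chromosome 14 with 27, chromosome 9 with 26 and chromosome 19 with 20.

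The lists came from lamin-B1 cTSA-seq, in which an antibody against lamin-B1 directs a peroxidase that coats nearby chromatin with biotin-tyramide, and the biotinylated chromatin is pulled down with streptavidin and sequenced. Of 10 such lists, 1 was from asynchronous K562 cells, a leukemia line, and 9 were from HCT116 cells, a colorectal carcinoma line. The HCT116 lists covered an asynchronous bulk culture, asynchronous cells counted to 1000000, 200000 or 50000, and cells sorted in G1, S or G2. For the remaining 2 lists, cells were held in nocodazole, a drug that stops them in mitosis. The labels give 16 h for this, while the study's methods give a longer time. The cells were shaken off and sorted in G1 at 90 min (90m G1) or 180 min (180m G1) after the drug was washed out. The labels give 2 pull-down libraries per condition, except for 1000000 cells with 1. They give 1 input library for each counted cell number and 2 for each other condition. Per the study's methods, the lower cell numbers were made by diluting harvested cells. No treatment other than nocodazole is labelled in these groups. Both are cancer lines, and neither is a sensory neuron. The last of the 11 lists held regions that the authors called from published TSA-seq data of K562 cells, a related method that recovers labelled DNA.

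Each list holds only starts and ends in steps of 100 kb on hg19, already merged over replicates. A gene was called in a list when regions covered 80% or more of it. No spread between replicates, no depth and no test can be given for any difference between lists, and genes that share a region are not independent of each other. The lists cover between 16.4% (90m G1) and 39.4% (K562 cTSA-seq) of the autosomes considered.

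Olfactory receptors are G protein-coupled receptors with 7 membrane-spanning helices that bind odorants on the cilia of olfactory sensory neurons. The genes sit in tandem clusters, their coding sequence is mostly in 1 exon, and each mature sensory neuron uses a single allele of a single receptor gene while the others are held in compacted chromatin. In cell types without smell the clusters are silent, and gene families of this kind are well known from lamina-associated domains.

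The annotation showed the same plan. Of the 227 genes, 221 had 1 coding exon, and the proteins had a median of 313 residues, from 303 to 361. The receptors carry a run of aspartate, arginine and tyrosine at the inner end of the third helix, a signature of the family. Codons for these residues in a row, at any place in the coding sequence, were found in 171 genes. In 104 genes they were preceded by codons for methionine, alanine and then tyrosine or phenylalanine. This stretch is shown because it lets genes be compared that lie in very different places in the lists. Each run below is 30 bases of hg19 on the coding strand, with the aspartate, arginine and tyrosine codons in capitals.
OR2T8 (chr1:248084665-248084694, plus strand): atggcctatGACCGCTATgcggctgtctgc
OR2T12 (chr1:248458506-248458535, minus strand): atggcctatGACCGCTATgcggctgtctgc
OR6N2 (chr1:158747045-158747074, minus strand): atggcctatGATAGATACctggccatttgt
OR13F1 (chr9:107266895-107266924, plus strand): atggcatatGACCGGTATgtggccatctgc
OR4K5 (chr14:20389117-20389146, plus strand): atggcctatGACAGGTATgtagccatatgc
OR5AC2 (chr3:97806374-97806403, plus strand): atggcctatGACCGCTATgtagccatatgt
OR2T8 and OR2T12 have the same 30 bases, lie in the cluster at the end of chromosome 1 and were called in all 9 HCT116 lists. OR6N2 and OR13F1 were called in 8 HCT116 lists, OR4K5 in 6, and OR5AC2 in none.

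In each of the 11 lists the share of receptor genes that were called was larger than the share of protein-coding genes. In K562 cells 46 of the 227 genes were called by cTSA-seq, or 20.3%, against 10.3% of all protein-coding genes on these autosomes. The TSA-seq list of the same cells held 76, or 33.5%, against 8.7%. In HCT116 bulk cells 70 genes were called, or 30.8%, against 9.92%.

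The counted cells gave the highest shares of all. With 1000000 cells 100 genes were called, or 44.1%, against a background of 3.99%. With 200000 cells the count was 90, or 39.6%, against 4.49%. With 50000 cells it was again 90, against 5.09%, and the 90 genes were the same in both lists.

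Across the cell cycle the share of all 227 genes was lowest in 90m G1, an order that turned without chromosome 1 (7.32% in 90m G1, 6.71% in 180m G1) and as a mean over clusters (15.6% and 14.3%). In 90m G1 56 genes were called, or 24.7%, against 16.4%, the highest background of any list. In 180m G1 the count was 69, or 30.4%, against 4.05%. Sorted G1 cells had 82, or 36.1%, against 4.33%. S cells had 80 called genes, or 35.2%, against 4.76%, and G2 cells also had 80, against 4%.

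**Figure D1:**
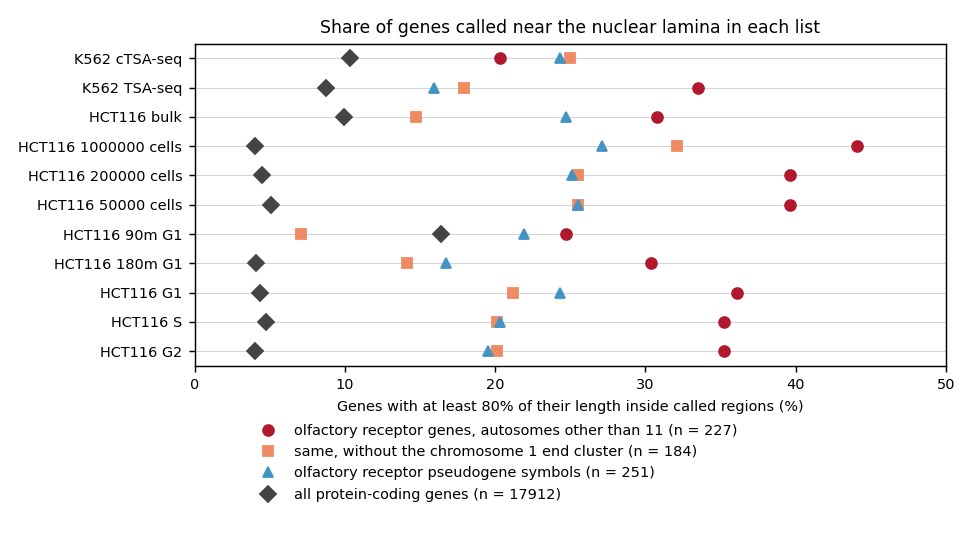
Percent of genes that called regions cover by 80% or more (horizontal axis) in each of the 11 lists (vertical axis), for the 227 receptor genes, the 184 outside the cluster at the end of chromosome 1, 251 receptor pseudogene symbols and 17912 protein-coding genes; each point is 1 list, without error bars because replicates were merged. The receptor genes lie to the right of the protein-coding genes in all lists, while without the end cluster the 90m G1 share is 7.07%, to the left of the background of 16.4%.

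Much of this rested on 1 cluster. Receptor genes no more than 500 kb apart were joined, which gave 25 clusters, 14 of them with at least 5 genes, and 10 solitary genes. The cluster at the end of chromosome 1 holds 43 of the 227 genes. Without it, the share of the remaining 184 genes was 25% in K562 cTSA-seq, 17.9% in K562 TSA-seq, 14.7% in HCT116 bulk cells, 32.1% with 1000000 cells, 25.5% with 200000 and with 50000 cells, 7.07% in 90m G1, 14.1% in 180m G1, 21.2% in G1, and 20.1% in S and in G2. The share thus stayed above the background in 10 lists and fell below it in 90m G1. Without the whole of chromosome 1 the bulk share of HCT116 cells, 8.54%, was also below its background of 9.66%.

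Genes were nearly always wholly inside or wholly outside regions. Of 2497 pairs of a gene and a list, 2495 were at exactly 0% or 100% of the gene's length. The exceptions were OR4N2 with 11.5% of its length inside regions in HCT116 bulk cells, and OR4K1 with 15.8% in S, both in a cluster of chromosome 14 at the edge of a region. Among 275 pairs of a cluster and a list, 38 had all genes called, 212 had none and 25 had some. A total of 87 genes, 38.3%, were called in none of the 11 lists, against 69.2% of protein-coding genes.

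**Figure D2:**
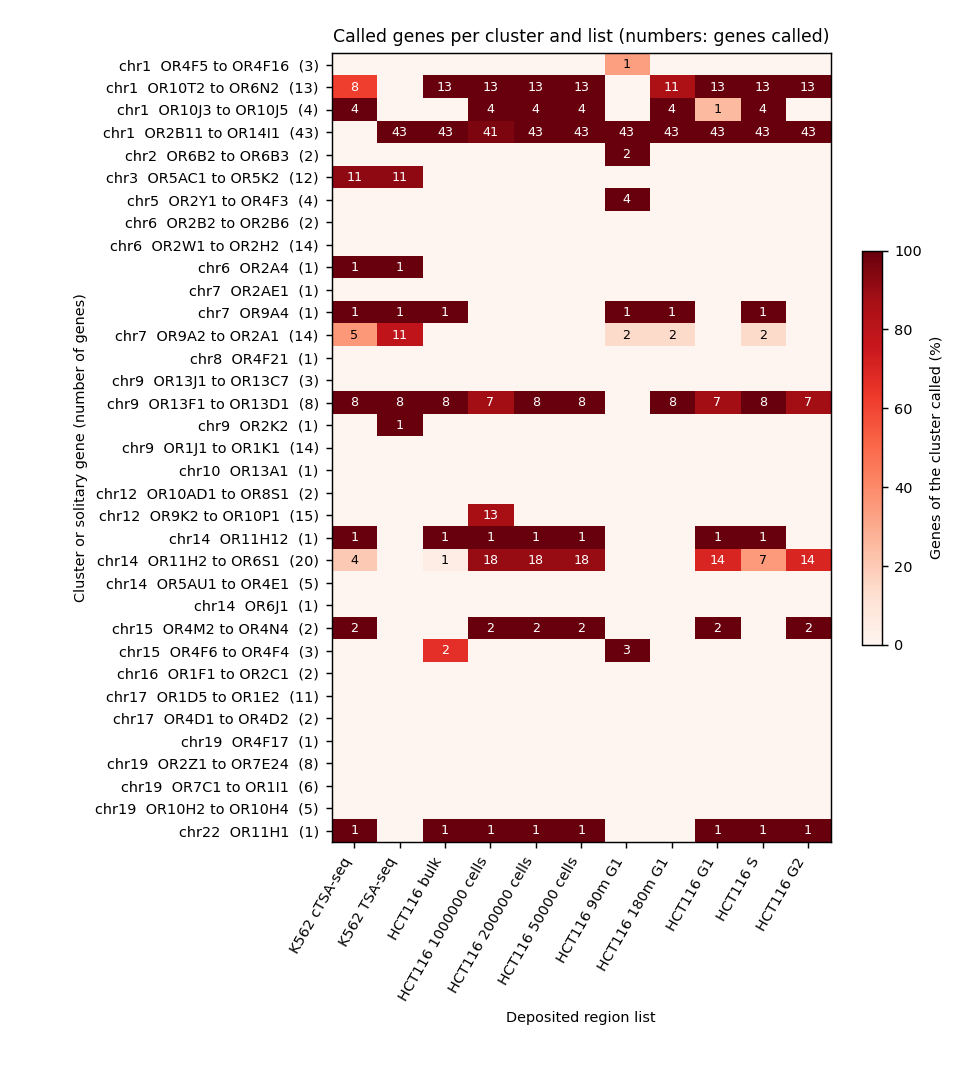
Heatmap of the 25 clusters and 10 solitary genes (rows, in order along the chromosomes, with the number of genes in parentheses) by list (columns); colour gives the percent of the genes of a row that were called and the printed number how many. The row OR2B11 to OR14I1 is filled in every list but K562 cTSA-seq, and 17 rows are empty throughout.

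The end cluster of chromosome 1 runs from OR2B11 to OR14I1, at chr1:247612420-248845629 on hg19. It spans 1233 kb, stops 0.405 Mb before the end of the chromosome, and includes the OR2T, OR2L, OR2M and OR14 subfamilies. None of its 43 genes was called in K562 cTSA-seq and all 43 were called in K562 TSA-seq. In HCT116 cells all 43 were called in 8 lists and 41 with 1000000 cells, where the region began after OR2B11 and OR2C3. So 41 genes of this cluster were called in all 9 HCT116 lists, and no other receptor gene outside chromosome 11 was.

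The regions over this cluster ended between positions 248900000 and 249250621 and differed more in where they began. With 200000 cells and in K562 TSA-seq the region was chr1:247600001-248900000, only 12.4 kb longer than the cluster on one side and 54.4 kb on the other. It measured 2.4 Mb in HCT116 bulk cells, where it began at position 246800001, 1.4 Mb in S, 1.5 Mb in G2, 1.6 Mb in 180m G1 and 1.7 Mb in G1. In 90m G1 the cluster lay inside a region of 11.1 Mb that began at position 238200001 and reached the last base of the chromosome at 249250621, with 93 protein-coding genes inside, while the S region held 50. In 90m G1 the cluster was thus part of a long terminal stretch, and in the later stages the region covered little besides it.

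**Figure D3:**
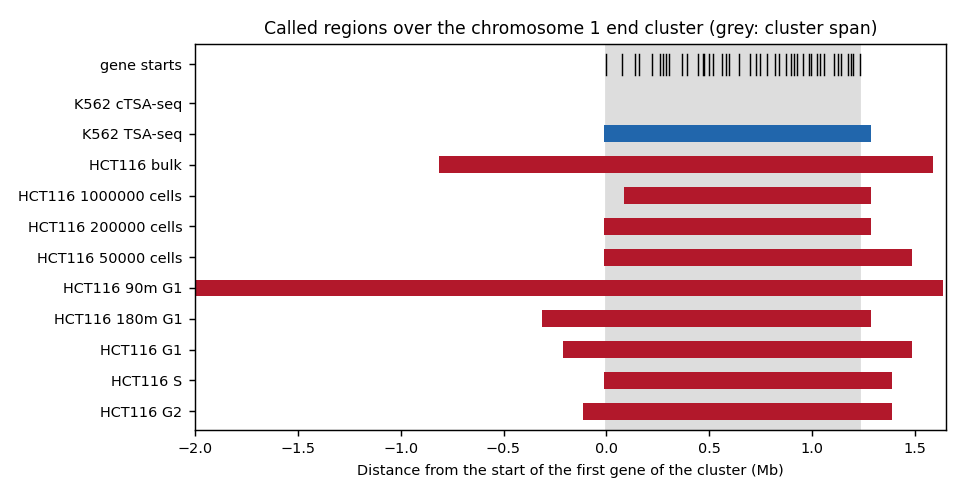
Called regions (bars, blue for K562 and red for HCT116) of each list over the cluster at the end of chromosome 1, by distance in Mb from the start of its first gene; black ticks are gene starts and grey is the span of the cluster. The K562 cTSA-seq row is empty, and the 90m G1 bar goes on beyond the left edge of the plot to a length of 11.1 Mb.

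Genes of other families inside this span had the calls of the receptors around them. GCSAML and TRIM58, the latter an E3 ubiquitin ligase of red cell precursors, were inside regions over their full length in K562 TSA-seq and outside in K562 cTSA-seq. GCSAML was 58% inside with 1000000 cells, where the region border cut through it, and TRIM58 was inside in all 9 HCT116 lists. The cluster was not part of the list of regions that the authors found depleted by both methods in K562 cells.

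OR2M3, a receptor for a thiol of onions, is in this cluster and was called in 10 of the 11 lists. Its promoter is printed because it holds a match to CCCNNGGG, the letters bound by the early B-cell factors, which with LHX2 act on receptor promoters in sensory neurons. The bases run from 250 before to 50 after the RefSeq start on GRCh38.p14, chr1:248197015-248197314, plus strand, with the match in capitals.
OR2M3: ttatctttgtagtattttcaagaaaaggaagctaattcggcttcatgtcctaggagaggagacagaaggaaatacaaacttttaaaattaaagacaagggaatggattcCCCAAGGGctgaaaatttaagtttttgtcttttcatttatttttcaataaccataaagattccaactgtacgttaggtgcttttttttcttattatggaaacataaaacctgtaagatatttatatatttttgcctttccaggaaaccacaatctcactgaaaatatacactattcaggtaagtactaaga
For comparison, OR1A1, a receptor of broad tuning in the chromosome 17 cluster, was called in no list and its promoter (chr17:3207417-3207716, plus strand, same build) also holds a match.
OR1A1: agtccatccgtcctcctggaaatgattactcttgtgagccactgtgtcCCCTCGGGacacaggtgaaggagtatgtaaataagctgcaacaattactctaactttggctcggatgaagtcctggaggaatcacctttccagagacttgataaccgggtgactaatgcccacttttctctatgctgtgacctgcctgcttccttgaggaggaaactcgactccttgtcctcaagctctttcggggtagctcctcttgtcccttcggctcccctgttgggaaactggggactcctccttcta
RefSeq promoters were matched by symbol for 172 of the 227 genes, with 181 start sites. CCCNNGGG, which reads the same on both strands, was found in 15 of them, 8.29%, against 19.2% of all promoters of that length on these autosomes. TAATTA, a homeodomain core that also reads the same on both strands and does not overlap it, was found in 38, 21%, against 4.81%. The base composition of the promoters differed as well, with a median G+C content of 38.3% against 58.7%, and its part in the motif counts was not tested.

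Chromosome 1 holds a pair of further clusters near its middle. The 13 genes from OR10T2 to OR6N2 (chr1:158368312-158750994) were all called in HCT116 bulk cells, with each of the cell numbers and in G1, S and G2. In 180m G1 11 were called, because the region began after OR10T2 and OR10K2, and in 90m G1 none. In K562 cells 8 were called by cTSA-seq and none by TSA-seq.

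Next to it, the 4 genes from OR10J3 to OR10J5 differed more between lists. All 4 were called in K562 cTSA-seq, with the 3 cell numbers, in 180m G1 and in S. OR10J3 alone was called in G1, and none in K562 TSA-seq, HCT116 bulk cells, 90m G1 or G2. OR10J5, which responds to lyral, was therefore called in 6 lists.

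On chromosome 9, the 8 genes from OR13F1 to OR13D1 (chr9:107266544-107457743) were the most constant after the end cluster. All 8 were called in both K562 lists and in 5 HCT116 lists, those of bulk cells, 200000 cells, 50000 cells, 180m G1 and S. With 1000000 cells and in G1 and G2 7 were called, since the region ended 57.7 kb before the end of the cluster and left out OR13D1. In 90m G1 none was called. The region that overlapped the cluster was 3.1 Mb long in 180m G1, 0.4 Mb in G1, 3 Mb in S and 1.6 Mb in G2. Only regions overlapping the cluster were measured, so a shorter region cannot be told from a long one split by a gap.

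The chromosome 14 cluster from OR11H2 to OR6S1 (chr14:20181095-21109850, 20 genes) was crossed by region ends. With each of the 3 cell numbers the region ended at position 20700000 and held 18 of the genes, OR11H7 for isovaleric acid among them. In G1 and G2 it ended at 20600000 and held 14, in S at 20400000 with 7, in K562 cTSA-seq at 20300000 with 4, and in HCT116 bulk cells at 20200000 with 1. In 90m G1, 180m G1 and K562 TSA-seq no gene of the cluster was called. OR11H4 and OR6S1 at its far side were called in no list and lay in regions depleted by both methods in K562 cells, together with APEX1, PARP2 and the RNASE genes between them.

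**Figure D4:**
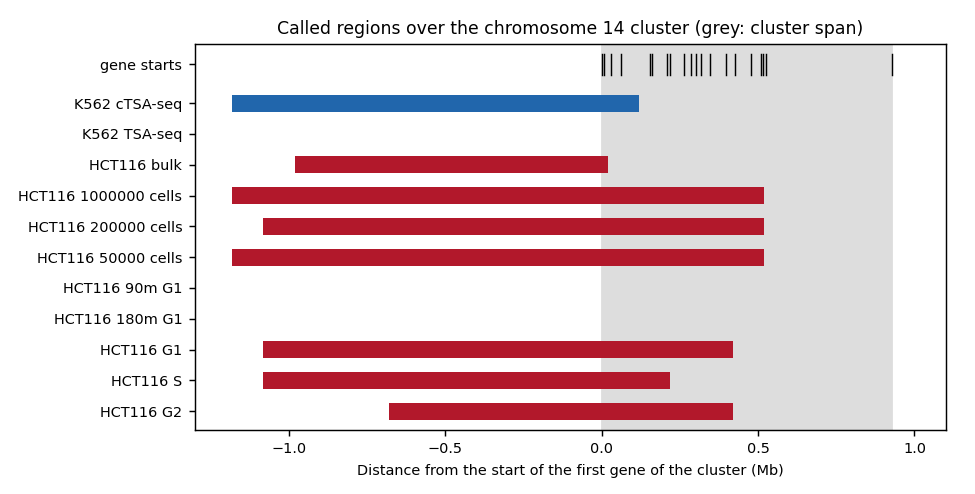
Called regions (bars, blue for K562 and red for HCT116) of each list over the chromosome 14 cluster from OR11H2 to OR6S1, by distance in Mb from the start of its first gene; black ticks are gene starts and grey is the span of the cluster. The right end of the regions moves from after 1 gene in HCT116 bulk cells to after 18 genes with the 3 cell numbers, and 3 rows are empty.

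Other genes close to the centromeres of short-armed chromosomes were called with this cluster. OR11H12 on chromosome 14 was called in K562 cTSA-seq and 6 HCT116 lists, and OR11H1 on chromosome 22 in K562 cTSA-seq and 7 HCT116 lists. OR4M2 and OR4N4 on chromosome 15 were called in K562 cTSA-seq, with the 3 cell numbers, in G1 and in G2. None of the 4 was called in K562 TSA-seq, 90m G1 or 180m G1.

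In K562 cells the cTSA-seq and TSA-seq lists held different receptor genes. The TSA-seq data were published by others and made with a mouse monoclonal lamin-B antibody, while cTSA-seq used a rabbit antibody against lamin-B1. In these lists method, antibody and laboratory cannot be told apart. The study also made its own K562 TSA-seq with the rabbit antibody, which was not analysed here. It reports that most regions of cTSA-seq alone were the same in that comparison. The cTSA-seq list and the published TSA-seq list both held 26 receptor genes, 11.5% against 6.14% of protein-coding genes. The cTSA-seq list alone held 20, 8.81%, and the TSA-seq list alone 50, 22%. Of the 50, 43 were the end cluster of chromosome 1, 6 were in the chromosome 7 cluster and the last was OR2K2 on chromosome 9. Among all protein-coding genes the order was the other way, with 4.11% called by cTSA-seq alone and 2.56% by TSA-seq alone. The 20 of cTSA-seq alone were 12 genes near the middle of chromosome 1, 5 on chromosome 14, OR4M2, OR4N4 and OR11H1.

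Chromosomes 3 and 7 held genes called in K562 cells and mostly not in HCT116 cells. On chromosome 3, 11 of the 12 genes from OR5AC1 to OR5K2 (chr3:97783316-98217475) were called in both K562 lists, with OR5K2 just beyond the common region end at 98200000, and none in any HCT116 list. On chromosome 7, the cluster from OR9A2 to OR2A1 had 5 of 14 genes called in K562 cTSA-seq and 11 in TSA-seq, all at its far side. At its near side OR9A2 and OR6V1 were called in HCT116 90m G1, 180m G1 and S, and in no K562 list. The solitary OR9A4, which lies before this cluster, was called in both K562 lists and in HCT116 bulk, 90m G1, 180m G1 and S. The solitary OR2A4 on chromosome 6 was called in both K562 lists and in no HCT116 list. In all, 24 receptor genes, 10.6%, were called in K562 cells and in no HCT116 list, against 7.84% of protein-coding genes, and 44, 19.4%, in HCT116 cells only, against 18%.

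The lists of the 3 cell numbers differed at single clusters. Of the 227 genes, 87 were called in all 3, 38.3% against 3.41% of protein-coding genes. With 1000000 cells 13 genes were called that were not called with 50000, 5.73% against 0.341%, all in the chromosome 12 cluster from OR9K2 to OR10P1 (chr12:55520190-56031617). The region there, chr12:55600001-56000000, was 0.4 Mb long, contained 13 of the 15 genes, mostly of the OR6C subfamily, and no other protein-coding gene, and it was in no other list. The 3 genes called with 50000 and not with 1000000 cells were OR2B11, OR2C3 and OR13D1, each at a region edge. Their share, 1.32%, was near the 1.45% of protein-coding genes. Against bulk HCT116 cells, 36 genes were called with 1000000 cells and not in bulk, 15.9% against 0.681% of protein-coding genes. In bulk and not with 1000000 cells 6 were called, 2.64% against 6.61%. Several of the 36 were also called with 200000 and 50000 cells, among them OR10J3 to OR10J5, OR4M2 and OR4N4. The chromosome 14 cluster had 18 genes called with each of the 3 cell numbers and 1 in bulk. The labels give 1 pull-down library for 1000000 cells, although its list is named as a consensus list. What the list was called from is not labelled, and the part of library number in the calls was not tested.

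From early G1 to G2 the receptor genes fell into a few sets. In all of G1, S and G2 71 genes were called, 31.3%, against 3.02% of protein-coding genes, and 43 of them were the end cluster. In all 5 stages the end cluster alone was called, 43 genes, 18.9% against 0.966% of protein-coding genes. In 180m G1, G1, S and G2 and not in 90m G1 there were 18, 7.93% against 1.14%, and these were 11 genes of OR10T2 to OR6N2 and 7 of OR13F1 to OR13D1. The 180m G1 list lacked 20 receptor genes that were called in G1, 8.81% against 2.07% of protein-coding genes, most of them on chromosome 14. It held 7 that were not called in G1, 3.08% against 1.78%.

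In 90m G1 most called receptor genes were near chromosome ends. Within 2 Mb of an end lay 55 of the 227 genes, of which 51, 92.7%, were called in 90m G1, against 52.5% of all protein-coding genes so placed. Of the 51, 43 were the end cluster of chromosome 1, and outside it 8 of 12 genes near an end were called, 66.7%. In the other HCT116 lists 74.5% to 81.8% of the 55 were called, against 5.52% to 18.5% of protein-coding genes near an end. Outside the end cluster, those lists called 2 of the 12 in bulk cells and none in the rest. Of the 172 genes farther away 5 were called in 90m G1, 2.91% against 13.9% of protein-coding genes so placed. These were OR6B2 and OR6B3, 2.21 Mb from the end of chromosome 2 in a region of 13.1 Mb, and OR9A4, OR9A2 and OR6V1 on chromosome 7. In K562 cTSA-seq none of the 55 genes near an end was called, as against 1.1% of protein-coding genes near an end. In K562 TSA-seq 43 of the 55 were called, 78.2% against 4.33%, all of them in the end cluster.

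A set of 10 genes was called in 90m G1 and in no later stage, 4.41% of the receptor genes against 13.7% of protein-coding genes. These were OR4F5 at the start of chromosome 1, OR6B2 and OR6B3 on chromosome 2, the 4 genes from OR2Y1 to OR4F3 at the end of chromosome 5, and the 3 from OR4F6 to OR4F4 at the end of chromosome 15. OR4F6 and OR4F15 were also called in HCT116 bulk cells. The chromosome 5 genes lay in a 90m G1 region of 6.32 Mb together with MGAT1, BTNL3, BTNL8, BTNL9, TRIM41 and RACK1, and the same stretch was depleted by both methods in K562 cells.

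Some receptor genes are near-identical copies that lie in different places. Coding sequences at least 99% identical were found for 18 receptor genes in 13 pairs, of which 8 pairs joined different chromosomes. OR4F3 on chromosome 5 and OR4F16 and OR4F29 on chromosome 1 had no difference, and OR4F3 was called in 90m G1 while the other two were not called in any list. Reads from such copies cannot be told apart within the genes, and a call covers a whole window of 100 kb. OR11H1 and OR11H12 were 99.49% identical and were called in 7 and 6 HCT116 lists, and OR2A4 and OR2A7 were 99.57% identical and were both called in the K562 lists alone. Within the end cluster OR2T29 and OR2T5, OR2T34 and OR2T3, and OR2T35 and OR2T2 were pairs with all copies called in 9 HCT116 lists. In 5 of the 13 pairs the number of HCT116 lists differed.

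A total of 17 clusters and solitary genes, with 79 receptor genes, had no call in any list. The largest were the 14 genes from OR2W1 to OR2H2 beside the major histocompatibility complex (chr6:29011990-29558277), the 14 from OR1J1 to OR1K1 on chromosome 9 (chr9:125239237-125563352) and the 11 from OR1D5 to OR1E2 on chromosome 17 (chr17:2965963-3337135). None of these 3 clusters was among the regions depleted by both methods in K562 cells either. On chromosome 19 no gene was called, and all 20 lay in depleted regions, in the clusters OR2Z1 to OR7E24 (8 genes), OR7C1 to OR1I1 (6) and OR10H2 to OR10H4 (5) and the solitary OR4F17. The 5 genes from OR5AU1 to OR4E1 on chromosome 14 were also without a call. In all, 47 of the 227 genes, 20.7%, lay in regions depleted by both methods, against 56.4% of protein-coding genes.

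Receptors with well known odorants were on both sides. OR2M3 was called in 10 lists, OR10J5 in 6 and OR11H7 in 3. OR7D4 for androstenone and OR7A17 on chromosome 19, OR2W1 and OR2J3 on chromosome 6, and OR1D2 for bourgeonal, OR1A1 and OR1A2 on chromosome 17 were called in none. The remaining solitary genes, OR2AE1, OR13A1, OR6J1 and OR4F21, were also called in none.

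The receptor genes lay in sequence of lower G+C content than most genes, and in 10 of the 11 lists the called ones had the lower median by at least 1 percentage point. The 100 kb windows of the 227 genes had a median G+C content of 38.3%, against 44.5% for protein-coding genes and 39.9% for all windows. The lower content of called genes was not particular to the receptors. Called protein-coding genes had medians from 37.3% (K562 TSA-seq) to 42.8% (HCT116 bulk) in the same 10 lists, and 47.4% in 90m G1. No HCT116 list called 111 receptor genes, 48.9% against 77% of protein-coding genes. These 111 had a median G+C content of 40.8%, from 35.8% to 48.8%. The 55 called in 1 to 7 lists had 37.9%, and the 61 called in 8 or 9 lists 37.2%, from 36.2% to 41.8%. The ranges overlap, and 43 of the 61 are the end cluster. In 90m G1 the medians were close, 38.1% for called and 38.3% for other receptor genes. Among clusters the order was loose: OR5AC1 to OR5K2 had 37% G+C and no HCT116 call, the same content as OR13F1 to OR13D1 with calls in 8 lists. OR2Z1 to OR7E24 on chromosome 19 had 45.6%. The part of base composition in the calls was not tested.

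**Figure D5:**
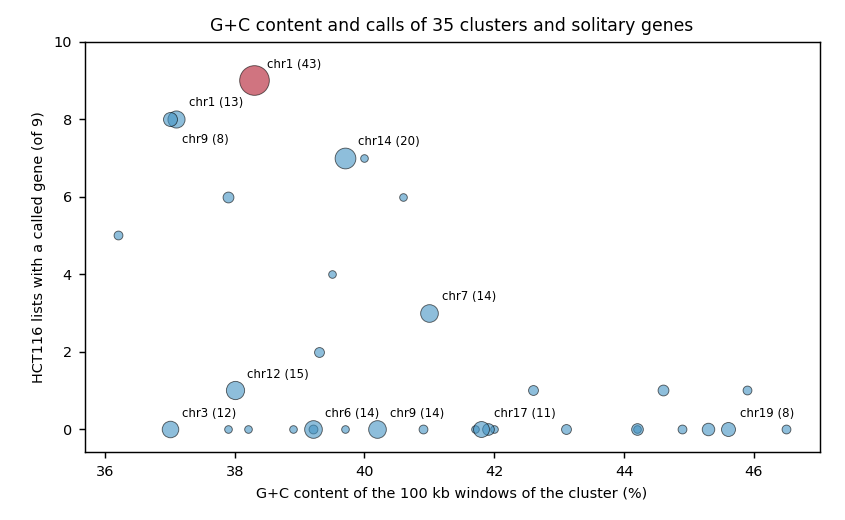
G+C content of the 100 kb windows of each of the 35 clusters and solitary genes (horizontal axis, percent) against the number of the 9 HCT116 lists in which at least 1 of its genes was called (vertical axis); area grows with the number of genes, red marks the end cluster of chromosome 1, and labels give the chromosome and number of genes of clusters with at least 8. Points with 8 or 9 lists lie between 37% and 38.3% G+C, but the chromosome 3 cluster has 37% and no HCT116 list.

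The pseudogenes of the family were counted in the same way. For 251 pseudogene symbols on the same autosomes the share was 24.3% in K562 cTSA-seq, above the genes, and otherwise below them, from 15.9% in K562 TSA-seq to 27.1% with 1000000 cells. Next, the end cluster was left out for the genes only. The pseudogene shares still held the 14 pseudogenes of that cluster, so the sets are not alike and the order cannot be read from them. For the 184 genes outside it the share was 14.7% against 24.7% of the pseudogenes in HCT116 bulk cells, 7.07% against 21.9% in 90m G1, 14.1% against 16.7% in 180m G1, 21.2% against 24.3% in G1, and 20.1% against 20.3% in S. It was 25.5% for both with 50000 cells, and the genes stayed higher in K562 TSA-seq, with 1000000 and 200000 cells and in G2. In the end cluster 14 pseudogenes lie between the genes, and shares with the cluster left out on both sides were not counted. The 81 other protein-coding genes inside cluster spans had shares from 4.94% in HCT116 bulk cells, against 9.92% of all protein-coding genes, to 25.9% in 90m G1, against 16.4%. Among the 81 are OR4M2B and OR4N4C, whose receptor symbols end in a letter and so missed the symbol rule.

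Olfactory receptor genes of chromosome 11, chosen by the same symbol rule, numbered 171. In K562 cells 45% were called by cTSA-seq and 40.9% by TSA-seq, both above the 227 genes. In HCT116 cells the share was above that of the 227 genes in bulk cells (46.2%), with 1000000 cells (51.5%), with 50000 cells (55%) and in 180m G1 (53.8%), and below it with 200000 cells (39.2%) and in 90m G1 (7.02%). In G1, S and G2 it was 33.3%, 32.7% and 32.7%, against 36.1%, 35.2% and 35.2% outside chromosome 11. Of the chromosome 11 genes 0.585% lay in regions depleted by both methods in K562 cells.

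Genes that act with the receptors were compared too. Of 17 genes of olfactory transduction on the same autosomes, 6 were called in 90m G1, 35.3% against 16.4%, and between 0 and 1 in every other list. The 6 were ADCY3, the adenylyl cyclase of the cilia, GNB1, a G protein beta subunit, RTP1 and RTP2, which help receptors to the cell surface, SLC24A4, a calcium exchanger, and PDE1C, a phosphodiesterase. Of 12 genes named for receptor gene regulation, 4 were called in 90m G1, LHX2, EMX2, EBF1 and EBF3, and between 0 and 3 in the others. The 4 were 33.3% of the genes against 16.4% of protein-coding genes. The 3 called in K562 cTSA-seq and the 3 called in HCT116 bulk cells were 25% against 10.3% and 9.92%. LBR, the lamin B receptor, was called in no list.

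The other chemosensory receptor genes on these autosomes were 40 taste, trace amine, vomeronasal and formyl peptide receptor genes. Of these, 12 were called in K562 cTSA-seq, 30% against 10.3%, and 22.5% in K562 TSA-seq against 8.7%. In HCT116 cells the share was 20% in bulk cells against 9.92%, 27.5% in 90m G1 against 16.4%, and 20% in 180m G1 against 4.05%. It was 10% in G1 against 4.33%, 15% in S against 4.76%, and 7.5% with 200000 and with 50000 cells, against 4.49% and 5.09%. Only with 1000000 cells and in G2 was it below the background, 2.5% against 3.99% and 4%. The 6 trace amine receptor genes TAAR1, TAAR2, TAAR5, TAAR6, TAAR8 and TAAR9 were called in both K562 lists and in no HCT116 list, as OR2A4 on the same chromosome was. The bitter receptor genes TAS2R39 and TAS2R40, which lie inside the chromosome 7 cluster, were called in 90m G1 and 180m G1, and TAS2R39 also in S, as OR9A2 and OR6V1 were.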

How the data were processed

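Lamin-B1 cTSA-seq of K562 and HCT116 cells was used, with published TSA-seq of K562 cells. Per the study's methods, the authors aligned reads to hg19 with Bowtie2 2.3.2, removed duplicates, counted reads in windows with bedtools 2.26.0, scaled libraries, turned log2 values of pull-down over input into z-scores, ran a 3-state Hidden Markov Model (HMM) and intersected replicate calls. The deposited values are region starts and ends in bp. The 90m G1 and 180m G1 lists, unlike the others of a condition, are not named as consensus lists. A further 2 comparison lists were not used, and RPE1 samples and the study's own K562 TSA-seq samples were not analysed here.

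Genes came from GENCODE 44 mapped to hg19, promoters from RefSeq (GRCh38.p14), and coding bases from the hg19 sequence. Python 3.11.15, numpy 2.4.6, scipy 1.17.1 and matplotlib 3.10.9 were used, and the counting was tested on simulated lists. A gene was called at 80% of its length, and clusters were joined at 500 kb. The genes and comparison lists were chosen with earlier results of these data known. Genes named are the ends of clusters with at least 5 genes, genes partly inside regions, genes of TSA-seq alone or 90m G1 alone, receptors with known odorants and solitary genes; others were named after their values were seen.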

Additional observations from a re-analysis of the deposited data

How the results depend on the processing

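The lists hold no depth and no replicates, so what depth limits is unknown, and genes of 1 cluster share 1 region. No paired analysis was possible because replicates were merged before deposit and no result comes from a test. Of 413 values under alternatives, 363 stayed within the 95% Wilson interval of the share (or within 1.5 times the count). That interval takes genes as independent, which they are not, so it is only a yardstick. Within these limits was every value for calls at 50% or 100% of the gene, any overlap of 1 bp and the start base alone. With 2495 of 2497 pairs at exactly 0% or 100%, those settings could hardly change a value. The limits also held every value for regions of at least 200 kb, regions joined over 100 kb, and clusters joined at 200 kb or 1 Mb. The cause of the changes beyond the limits was not tested further than what each alternative leaves out or adds. In the order of the lists K562 cTSA-seq, K562 TSA-seq, HCT116 bulk, 1000000, 200000 and 50000 cells, the 90m and 180m releases, then sorted G1, S and G2, the mean over clusters and solitary genes was 26%, 19.1%, 19.2%, 24.6%, 22.6%, 22.6%, 15.6%, 14.3%, 19.5%, 21.4% and 15.9%. Without the end cluster of chromosome 1, an alternative chosen after seeing the data, the shares from K562 TSA-seq on were 17.9%, 14.7%, 32.1%, 25.5%, 25.5%, 7.07%, 14.1%, 21.2%, 20.1% and 20.1%, 28 genes were shared by the sorted G1, S and G2 lists, and 7 in TSA-seq alone. With pseudogenes added the shares were 24.3% in K562 TSA-seq, 35.1% with 1000000 cells, 32% with 200000, 32.2% with 50000, 23.2% at 180m, and 29.9%, 27.4% and 27% for sorted G1, S and G2. With 251 pseudogene symbols added to the 227 genes, 241 were called in no HCT116 list. In this larger set 46 were in 90m G1 and no later stage, and 29 in the 4 later stages and not in 90m G1. Counts under an alternative are over the set it makes or leaves, so the size of the set alone can move them. Without the OR4F genes 5 genes were called in 90m G1 and no later stage.

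Leaving out each chromosome in turn gave, in the same order of lists, shares of 16.3% to 22.2%, 20.1% to 38%, 8.54% to 34%, 25.6% to 48.3%, 18.3% to 43.5%, 18.3% to 43.5%, 7.32% to 28%, 6.71% to 34.5%, 15.2% to 39.6%, 12.2% to 38.6% and 14.6% to 38.6%. The lowest value came without chromosome 1, except for K562 cTSA-seq without chromosome 3. The count shared by sorted G1, S and G2 ran from 15 to 71, in no HCT116 list from 91 to 111, in TSA-seq alone from 7 to 50, in 90m G1 and no later stage from 6 to 10, and in the later stages without 90m G1 from 7 to 18.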
